A study of Mus musculus with 24 samples.

Results

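The genes described here are 10 immediate early genes of the mouse, taken by symbol from the count table of every library: Fos, Fosb, Junb, Egr1, Egr2, Egr3, Egr4, Arc, Npas4 and Nr4a1. They are 10 of the 55487 genes counted, and all of them have an entry in the counts of all 24 libraries. Some cerebellum libraries held no read of Egr2, Egr3 or Npas4. The mice were wild type, and each had either lost both olfactory bulbs to surgery (bulbectomy, abbreviated OBX in the labels) or had a sham operation; RNA was taken from 3 brain regions, the hippocampus, the cortex and the cerebellum. The libraries hold poly(A) RNA, and the series title names Alzheimer's disease and depression, for which bulbectomy is used as a model. The hippocampus gave 4 bulbectomy and 5 sham libraries, the cortex 3 and 5, and the cerebellum 2 and 5, so the bulbectomy groups of cortex and cerebellum rest on few libraries. The sources used here give no sex, no age, no time from surgery to dissection and no account of handling before it. No source says that the libraries of a group came from separate animals, so p-values measure the spread between these libraries, which may be technical.

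Reads assigned to genes numbered 8145624 to 20230673 in 22 libraries, 3255661 in hippocampus sham 1 and 138963332 in hippocampus sham 4, so low genes are least precise in the first of these and most precise in the second. Hippocampus sham 1 and sham 2 stood apart in genes of striatal medium spiny neurons (12 genes, among them Drd1, Drd2 and Adora2a), which summed to 2771 and 3803 CPM there and to 170.7 to 411.3 CPM in the other 7 hippocampus libraries. Levels are given in CPM (counts-per-million, scaled by TMM over all 24 libraries together), on which scale 3 reads stood for 0.0182 to 0.885 CPM. Libraries of cerebellum and cortex carried the markers of their tissue: granule cell genes summed to at least 2890 CPM in the cerebellum and at most 153.8 CPM elsewhere, and cortical layer genes to 528.8 CPM or more in the cortex and at most 374.6 CPM elsewhere. Hippocampus sham 2 did not stand out from the cortex in hippocampal markers: dentate granule cell genes summed to 61.5 CPM there, against 213.9 to 374.7 CPM in the other 8 hippocampus libraries and 33.8 to 58.6 CPM in the cortex, and pyramidal cell genes to 354.1 CPM, within the cortex range of 260.8 to 655.5 CPM. Results on hippocampus are therefore also given without sham 1 and 2 where the call or size depends on them.

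Immediate early genes are switched on within minutes of a stimulus, without new protein synthesis, when calcium entry and kinase signalling activate transcription factors already bound to their promoters. In neurons they are read as a trace of recent activity, and their RNAs decay quickly. Fos, Fosb and Junb encode parts of the AP-1 transcription factor, Egr1 to Egr4 encode zinc finger transcription factors, Npas4 encodes a basic helix-loop-helix factor that responds to calcium entry, and Nr4a1 encodes an orphan nuclear receptor. Arc encodes a protein of dendrites and synapses that acts in the removal of AMPA receptors. In bulk tissue, fewer cells of a type and less RNA per cell cannot be told apart.

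On GRCm38, with GENCODE M21 coordinates counted from 1, Fos spans chr12:85473890-85477273 on the plus strand, Fosb chr7:19302696-19310051 on the minus strand and Junb chr8:84974484-84978718 on the minus strand. Egr2 lies at chr10:67535475-67542188 and Egr3 at chr14:70077203-70082614, both on the plus strand, and Egr4 at chr6:85511121-85513589 on the minus strand. Arc (chr15:74669083-74672570, minus) and Nr4a1 (chr15:101254269-101274795, plus) share a chromosome, and Npas4 is at chr19:4984355-4990316 on the minus strand. Of the 10 genes only Junb shares exon bases with a neighbour, 7.52% of them with Prdx2 on the opposite strand, so its count is uncertain to that extent where the counting ignored strand.

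Promoter sequence from RefSeq (GRCm38.p6) was found for 7 of the 10 genes: Fos, Fosb, Junb, Egr2, Egr4, Npas4 and Nr4a1. The half-site of the cAMP response element, TGACG on either strand, is where CREB binds, and it occurred in the 250 bases before a start of 7 of the 7, against 17.8% of all 32851 promoter windows of that length. The windows below are shown because they carry this shared feature of genes that are compared throughout. They run 5′ to 3′ along the gene's strand, and capitals mark TGACG or its reverse complement CGTCA.
Fos, chr12:85473640-85473889, plus: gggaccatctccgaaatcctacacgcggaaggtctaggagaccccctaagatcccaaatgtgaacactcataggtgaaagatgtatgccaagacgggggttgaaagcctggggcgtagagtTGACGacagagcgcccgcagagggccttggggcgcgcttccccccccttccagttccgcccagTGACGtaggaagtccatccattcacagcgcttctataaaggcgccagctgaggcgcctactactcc
Junb, chr8:84978749-84978998, minus: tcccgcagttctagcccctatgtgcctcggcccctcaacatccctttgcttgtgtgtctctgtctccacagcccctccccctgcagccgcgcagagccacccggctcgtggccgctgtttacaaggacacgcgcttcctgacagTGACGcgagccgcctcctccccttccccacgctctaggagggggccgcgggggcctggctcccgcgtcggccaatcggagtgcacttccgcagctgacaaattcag
Egr4, chr6:85513590-85513839, minus: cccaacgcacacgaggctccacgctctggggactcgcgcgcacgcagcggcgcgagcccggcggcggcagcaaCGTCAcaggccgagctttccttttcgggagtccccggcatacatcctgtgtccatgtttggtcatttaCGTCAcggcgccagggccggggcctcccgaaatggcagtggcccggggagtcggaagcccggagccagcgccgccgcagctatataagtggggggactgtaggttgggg
Nr4a1, chr15:101266596-101266845, plus: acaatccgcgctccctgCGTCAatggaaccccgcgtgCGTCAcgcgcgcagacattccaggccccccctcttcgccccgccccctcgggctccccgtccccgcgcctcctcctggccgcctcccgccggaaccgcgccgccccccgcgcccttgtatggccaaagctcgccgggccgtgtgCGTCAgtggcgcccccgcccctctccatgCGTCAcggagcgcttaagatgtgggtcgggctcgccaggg
Nr4a1 holds 4 half-sites, Fos and Egr4 hold 2 each, and Junb and Fosb hold 1 each. Npas4 holds 2, which point away from each other in a stretch of 30 bases (chr19:4990129-4990158, minus).
Npas4: ccgttcgaCGTCAcgggaTGACGtcggaag
Egr2 has 5 starts in this source, and the first and second have no half-site before them. A gene is counted here if any of its starts has a match, whereas the shares over all promoters are per window. The third start of Egr2 has a CArG box (the binding site of serum response factor) close to a half-site. Both are in capitals in the 30 bases chr10:67537793-67537822 on the plus strand.
Egr2: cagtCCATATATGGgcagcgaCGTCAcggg
A CArG box occurred in 1 of the 7 genes, Egr2, and in 1.47% of all windows. The full palindrome TGACGTCA, which holds a half-site on each strand, was in none of the 7 (1.55% of all windows). The EGR site GCGNGGGCG on either strand was in 2, Fosb and Nr4a1 (4.7%), and the AP-1 site TGANTCA was in none (6.75%). These are matches of letters in these windows only.

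Among the sham libraries, the cortex had the highest mean level of every one of the 10 genes, and the cerebellum the lowest of all but Fos. Compared per kilobase of exon, Arc led in the sham cortex with 48.3 ± 35.6 CPM per kb (SD, n = 5), followed by Egr1 with 42.5 ± 11.4, Junb with 28.1 ± 10.8, Egr3 with 21.6 ± 7.60, Egr4 with 16.1 ± 3.94 and Nr4a1 with 12.4 ± 7.15. Fos (7.92 ± 5.76), Npas4 (3.33 ± 2.63), Fosb (2.91 ± 0.592) and Egr2 (1.03 ± 1.15) were lower on this scale. All 10 genes were measured in the same 5 libraries, so these SDs do not measure differences between genes, which were not tested. The sham hippocampus had the same leading 3 genes, with Arc at 27.7 ± 8.20, Junb at 25.8 ± 2.84 and Egr1 at 21.4 ± 3.64 CPM per kb. In the sham cerebellum Egr1 (10.6 ± 2.16) and Junb (10.6 ± 4.02) were at the top and Egr2 (0.0341 ± 0.0311) at the bottom.

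**Figure D1:**
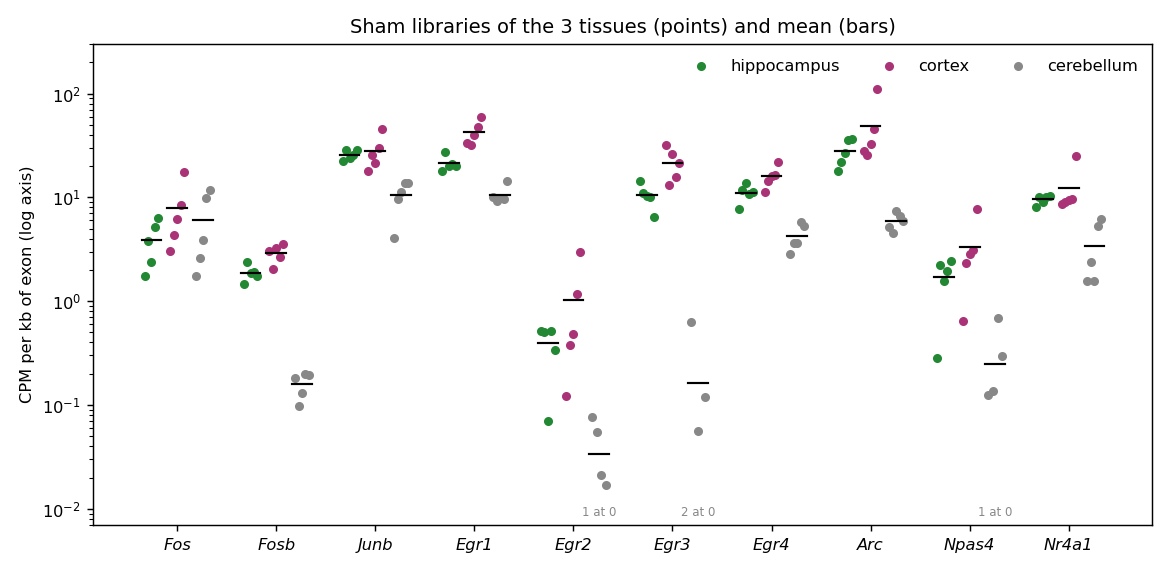
Level of each gene in the sham libraries, as CPM per kilobase of exon on a log axis; points are the 5 libraries of each tissue, bars are means, and the small text near the bottom counts libraries without a read. Cortex means lie highest for all 10 genes, and for Fos the points of the 3 tissues overlap.

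The sham cortex against the sham cerebellum, a contrast of tissues in operated controls, gave 9 of the 10 genes called higher in cortex and none called lower, at an adjusted p under 0.05 in edgeR's quasi-likelihood test (16.8% of 15142 genes were called higher and 17.9% lower). Egr3 had 139.7, 57.9, 115.4, 68.6 and 94.1 CPM in the 5 cortex libraries and 0, 2.78, 0.250, 0 and 0.521 CPM in the 5 cerebellum libraries. All cortex libraries lay above all cerebellum libraries. The cerebellum libraries held 0, 32, 4, 0 and 9 reads of it, and it passed the filter on low counts only through the other tissues. No size or p-value is therefore given for its difference, and its call is not taken as support. Fosb, at 18.2 ± 3.69 against 1.003 ± 0.279 CPM, differed by 4.24 ± 0.255 (SE) on the log2 scale (adjusted p = 2.94e-09). The cerebellum libraries held 7 to 21 reads of Fosb, so its p-value rests partly on low counts. Arc differed by 3.11 ± 0.371 (adjusted p = 5.82e-06). The differences of Egr1 (2.09), Egr4 (2.0), Nr4a1 (1.94) and Junb (1.5) were smaller. Egr2 was called too, but the cerebellum libraries held 0 to 3 reads of it, which is at the floor of counting. Npas4 was called as well, with 0, 6, 9, 39 and 21 reads in the cerebellum libraries. In this fit Egr2 and Npas4 also passed the filter only through the other tissues, so neither call is taken as support. The groups did not overlap for 8 of the 10 genes, where 25.6% of all genes had no overlap in either direction, and the exceptions were Fos and Npas4. The 8 include Egr2 and Egr3, which were scarce or absent in the cerebellum.

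Fos was not called between any 2 of the sham tissues. It had 7.10, 10.3, 14.7, 19.7 and 41.3 CPM in the sham cortex, 4.13, 6.17, 9.05, 23.4 and 27.8 CPM in the sham cerebellum, and 4.13, 8.90, 5.62, 12.3 and 14.8 CPM in the sham hippocampus. The 3 ranges overlapped widely. Cortex minus cerebellum was 0.47 ± 0.539 on the log2 scale (adjusted p = 0.543), hippocampus minus cerebellum -0.54 ± 0.547 (adjusted p = 0.512), and hippocampus minus cortex -1.01 ± 0.549 (adjusted p = 0.474). Without cortex sham 5 the cortex minus cerebellum value was -0.04.

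The sham hippocampus lay above the sham cerebellum for the same 9 genes, all called (15.5% of genes were called higher and 12.9% lower). Egr3 was at 46.2 ± 12.4 CPM in hippocampus (SD, n = 5), with the same scarce reads in the cerebellum, and Egr2 was near the floor there. The calls of Egr2, Egr3 and Npas4 are again not taken as support. Fosb, with the same few reads in the cerebellum, differed by 3.60 ± 0.251 on the log2 scale (adjusted p = 1.89e-08). Arc differed by 2.29 ± 0.361 (adjusted p = 0.000122). Nr4a1 (1.56), Egr4 (1.44), Junb (1.35) and Egr1 (1.08) followed. The groups did not overlap for 7 of the 10, Egr3 among them (18.1% of all genes in either direction). With only these 2 tissues in the fit, 8 genes were called in place of 9 in each comparison with the cerebellum.

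Between the sham hippocampus and the sham cortex all 10 genes had the lower mean in hippocampus, with a median log2 difference of -0.89 against 0.02 over all genes, but only Egr1 was called (1.21% of genes were called lower in hippocampus and 2.09% higher). Egr1 had 80.8, 123.8, 90.8, 94.6 and 90.3 CPM in hippocampus and 148.8, 142.2, 180.7, 214.6 and 266.1 CPM in cortex. Every hippocampus library lay below every cortex library, which held for this gene alone of the 10 (6.8% of all genes in either direction), and the difference was -1.0 ± 0.191 (adjusted p = 0.00864). Fosb (-0.65 ± 0.217, adjusted p = 0.141), Egr4 (-0.56 ± 0.220, adjusted p = 0.233) and Egr3 (-1.06 ± 0.527, adjusted p = 0.404) did not pass. Junb was closest between these tissues, at 59.3 ± 6.54 and 64.8 ± 24.9 CPM (-0.14 ± 0.283, adjusted p = 0.89). Without cortex sham 5, Junb (0.10) and Nr4a1 (0.03) turned to the other side and the other 8 genes stayed lower in hippocampus. Limma voom called 3 genes (Egr1, Egr3 and Fosb), with 10.1% of all genes called, and DESeq2 2 (Egr1 and Fosb), with 5.91%. Without hippocampus sham 1 and 2, the libraries with striatal genes, Egr1 differed by -1.09 and was still the 1 gene called.

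Other genes of the same response were followed between the sham tissues in 3 lists: regulated transcription factors (21 tested), regulated effectors (26 tested) and the upstream pathway (31 tested). Against the cerebellum, the cortex had 8 of the transcription factors called higher and 3 lower, 13 higher and 4 lower of the effectors, and 14 higher and 4 lower of the upstream genes. Of all genes 16.8% were called higher and 17.9% lower in that contrast. Nptx2, a secreted protein of excitatory synapses, was higher in cortex by 5.2 on the log2 scale and Camk2a, a calcium-dependent kinase of forebrain neurons, by 5.12, whereas Dusp5, a phosphatase of ERK, was lower in cortex by 3.61 on that scale (-3.61 ± 0.186, adjusted p = 6.21e-10). Among the transcription factors, Nr4a2, a close relative of Nr4a1, was higher in cortex by 2.91, Fosl2, a relative of Fos, by 2.07, and Ier5 by 1.47. Of the effectors, Pcdh8, a protocadherin of synapses, was higher by 3.92 and Vgf, a neuropeptide precursor, by 3.33, and of the upstream genes Mef2c, a calcium-regulated transcription factor, by 4.82 and Grin2b, an NMDA receptor subunit, by 4.79. For the hippocampus against the cerebellum the counts higher and lower were 7 and 3, 11 and 1, and 9 and 3 in the same order of lists. Over all genes the shares were 15.5% higher and 12.9% lower. Fosl2 (2.42), Myc (2.28), Nr4a2 (2.21), Pcdh8 (4.32), Vgf (3.19), Plk2 (2.69) and Camk2a (4.5) were higher in hippocampus, and Dusp5 (-2.8) was lower. Between hippocampus and cortex 4 of the 78 genes in the lists were called, where 500 of all 15142 genes were: Ier5 (-0.65), Mef2c (-2.04) and Camkk2 (-1.04) lower in hippocampus and Dusp5 (0.82) higher. Of Dusp5's exon bases 22.12% overlap a gene on the opposite strand.

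After bulbectomy, no immediate early gene was called in the hippocampus: 0 of 10 passed an adjusted p under 0.05, where 217 of 13985 genes did (1.55%; 77 higher and 140 lower, or 220 and 98 with length and GC trends removed). Their values nevertheless lay mostly on one side, with 9 of 10 lower after bulbectomy and a median log2 fold change of -0.61, against 0.02 for all genes. At an unadjusted p under 0.05, 4 were lower, Junb, Egr1, Egr3 and Npas4, in a tissue where 10.9% of all genes met that rule in that direction. For 3 of them, Junb, Egr1 and Egr3, all 4 bulbectomy libraries lay below all 5 sham libraries, which 5.42% of all genes showed.

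Egr3, whose protein acts in muscle spindle development and in plasticity, had 27.1, 19.0, 11.7 and 27.7 CPM in the 4 bulbectomy libraries of hippocampus and 63.4, 48.9, 45.2, 44.8 and 28.8 CPM in the sham libraries. The highest bulbectomy library and the lowest sham library, sham 5, nearly touched. The log2 fold change was -1.08 ± 0.265 (SE), which is 2.12-fold, with an adjusted p of 0.0559. Without sham 5 it was -1.28 (adjusted p = 0.0321).

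Junb had 39.8, 36.0, 39.8 and 24.5 CPM after bulbectomy and 51.3, 66.4, 54.7, 58.9 and 65.3 CPM after sham surgery. The groups did not overlap. The SD of log2 CPM was 0.16 in the sham group, at the 5.07th percentile of all genes, and 0.33 in the bulbectomy group, at the 54th. The log2 fold change was -0.73 ± 0.184 (adjusted p = 0.0597), and -0.83 without sham 1 (adjusted p = 0.0494).

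Egr1, a zinc finger factor widely induced in synaptic plasticity and encoded at chr18:34859823-34864984 on the plus strand, had 72.6, 56.5, 47.1 and 68.3 CPM after bulbectomy and 80.8, 123.8, 90.8, 94.6 and 90.3 CPM after sham surgery. The nearest libraries of the groups were bulbectomy 1 and sham 1. Its log2 fold change was -0.63 ± 0.179 (adjusted p = 0.0846).

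Npas4 had the largest fold change of the 10. Levels were 2.33, 1.59, 2.16 and 3.39 CPM after bulbectomy and 1.18, 9.25, 6.46, 8.04 and 10.1 CPM after sham surgery, a log2 fold change of -1.58 ± 0.447 (2.98-fold, adjusted p = 0.0845). A single sham library, sham 1, lay below the bulbectomy libraries, and its value rests on 4 reads. Without sham 1 the log2 fold change was -1.86 (adjusted p = 0.0138), and without sham 1 and 2 it was -1.75 (adjusted p = 0.0138).

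Fos itself had 10, 2.69, 6.34 and 5.33 CPM after bulbectomy and 4.13, 8.90, 5.62, 12.3 and 14.8 CPM in the sham group. The groups overlapped over most of their range, and the log2 fold change of -0.59 ± 0.407 did not pass (adjusted p = 0.436). Arc had 124.4, 54.3, 39.0 and 62.3 CPM after bulbectomy and 54.3, 67.4, 81.9, 109.7 and 110.3 CPM in the sham group. Of the bulbectomy libraries, number 1 was above every sham library and the other 3 were below at least 4 of the 5 sham libraries. Nr4a1 had the same layout in its bulbectomy libraries, with 38.2 CPM in number 1 and 25.4, 14.2 and 25.9 CPM in the others, against 28.3 to 36.4 CPM in the sham group. The log2 fold changes of Egr2 (-0.70 ± 0.527), Nr4a1 (-0.35 ± 0.230), Egr4 (-0.29 ± 0.195) and Arc (-0.26 ± 0.315) were below 0 without passing, with adjusted p from 0.404 to 0.669. Egr2 was scarce, with 5 to 9 reads in the bulbectomy libraries. Fosb was the 1 gene not lower, at 11.9 ± 4.95 against 11.7 ± 2.08 CPM (0.03 ± 0.265, adjusted p = 0.953).

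The count of hippocampus calls turned on the test: DESeq2 called 4 of the 10 lower (Junb, Egr1, Egr3 and Npas4, adjusted p 0.00557 to 0.0197) and limma voom with library weights 2 (Junb and Npas4, adjusted p 0.0418 and 0.0482). Those tools also called more of all genes, 6.82% (954) and 2.2% (307) in either direction. Markers moved with the groups as well. Genes of thalamus and habenula were higher after bulbectomy for 11 of 12 (4 called, summed level 338 to 560.9 CPM against 106.7 to 373.4 CPM), and striatal genes were lower for 12 of 12 (0 called, 281.5 to 411.3 CPM against 170.7 to 3803 CPM). Dentate granule cell genes summed to 269.8 to 374.7 CPM against 61.5 to 267 CPM, with 3 of the 6 tested higher and 3 lower. The cerebellar granule cell list, in which Neurod1 and the Zic genes are not restricted to the cerebellum, summed to 84.2 to 153.8 CPM against 38.8 to 71.5 CPM (6 of 7 tested higher, 1 called). Choroid plexus genes ranged from 267.6 to 1355 CPM after bulbectomy and from 48.9 to 943.4 CPM after sham surgery (5 of 8 higher, 0 called). No striatal or dentate gene of the lists was at 0 in any hippocampus library, and 1 of the 12 thalamus and habenula genes was at 0 in sham 1 and in sham 5. The part of these tissues in the fold changes was not tested beyond leaving out sham 1 and 2, after which Junb (-0.72), Egr1 (-0.55), Egr3 (-0.85) and Npas4 (-1.75) were still lower and 1 gene, Npas4, was called.

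**Figure D2:**
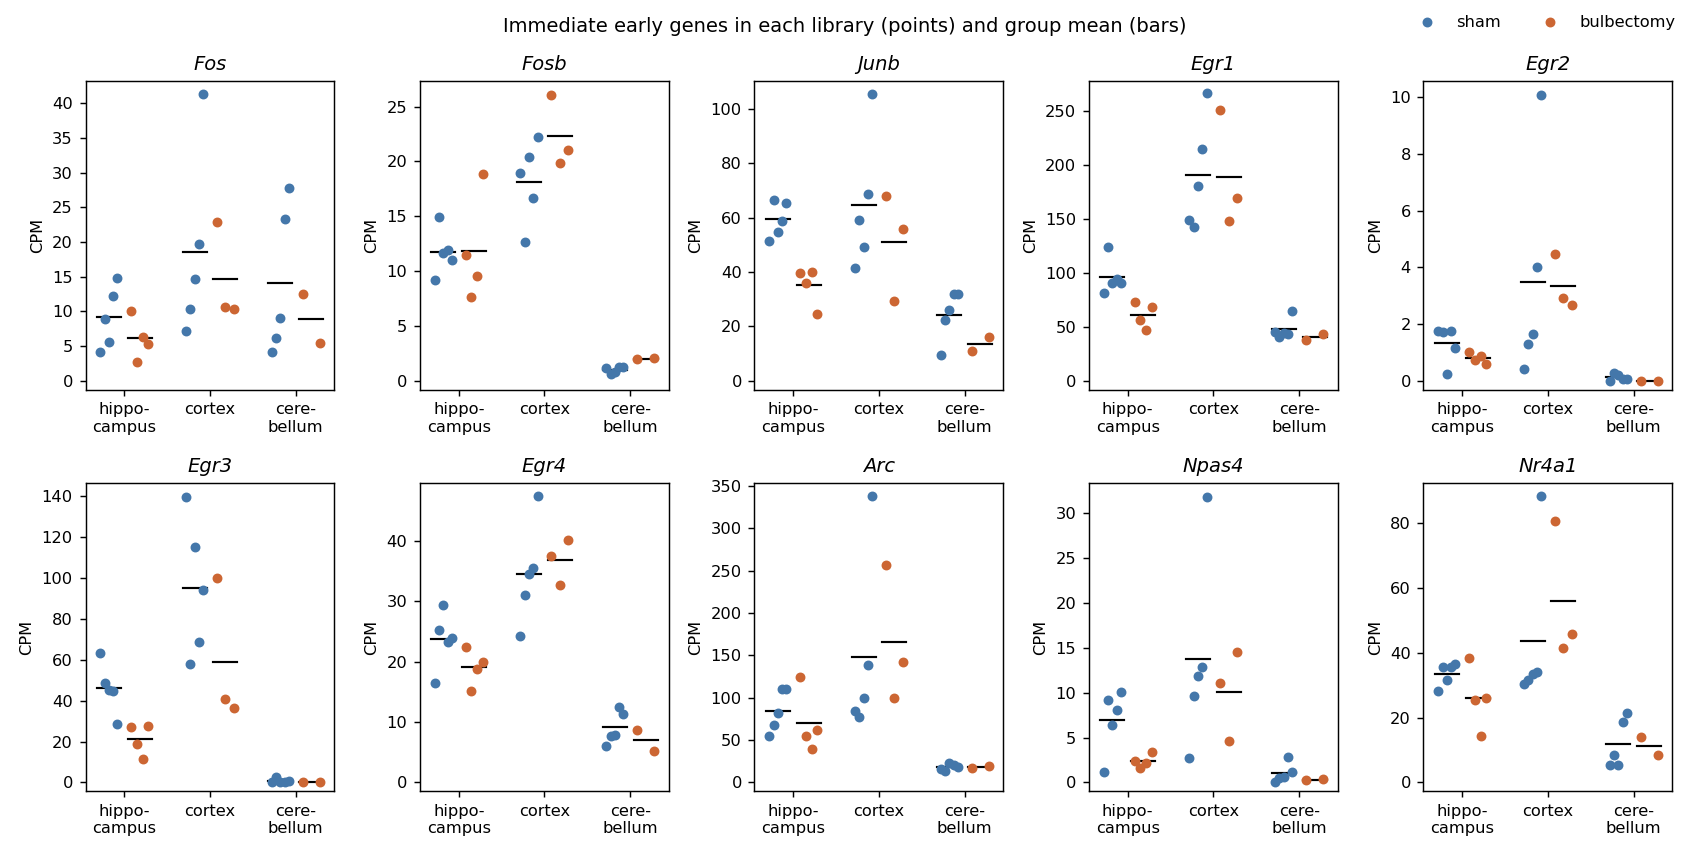
CPM of the 10 genes in each library, by tissue and operation, with linear axes from 0 that differ between genes; points are libraries and bars are group means. In hippocampus the bulbectomy points of Junb, Egr1 and Egr3 lie below all sham points, and in cortex 1 sham library is far above the rest for Fos, Egr2, Arc, Npas4 and Nr4a1.

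In the cortex after bulbectomy, 0 of the 10 genes were called (3 of 14847 genes were, 0.0202%), 6 were lower and 4 higher, and for none did the groups fail to overlap (3.59% of all genes in either direction). None had an unadjusted p under 0.05, and DESeq2 and limma voom called none (0.263% and 1.7% of all genes). Egr3 came nearest, with 100.3, 40.9 and 36.3 CPM after bulbectomy and 139.7, 57.9, 115.4, 68.6 and 94.1 CPM after sham surgery. Of the 3 bulbectomy libraries, 2 lay below every sham library and bulbectomy 1 was among the higher sham values. The log2 fold change was -0.68 ± 0.370 (adjusted p = 0.848), and without bulbectomy 1 it was -1.34 (adjusted p = 0.0441).

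For most of the other genes single libraries decided the sign in the cortex. Fos had 23.0, 10.6 and 10.3 CPM after bulbectomy and 7.10, 10.3, 14.7, 19.7 and 41.3 CPM after sham surgery, -0.36 ± 0.515 on the log2 scale (adjusted p = 0.925). Bulbectomy 1 and sham 5 were the high libraries of their groups. Without sham 5 the fold change of Fos was 0.14, the other way. Arc showed the same layout, with 257.2, 99.5 and 142.2 CPM against 84.5, 77.6, 99.5, 138.3 and 337.6 CPM (0.16 ± 0.510, adjusted p = 0.966). Nr4a1 had 80.7, 41.3 and 45.7 CPM against 30.4, 31.5, 33.3, 34.0 and 88.3 CPM, so that 4 of the 5 sham libraries lay below all bulbectomy libraries and sham 5 above them (0.35 ± 0.371, adjusted p = 0.895). The other members, Fosb (0.29), Egr4 (0.07), Egr1 (-0.02), Egr2 (-0.09), Junb (-0.36) and Npas4 (-0.49), had adjusted p from 0.881 to 0.989. Without sham 5, Egr1 (0.10), Egr2 (0.81) and Npas4 (0.07) also turned higher, and without bulbectomy 1, Arc (-0.34) and Nr4a1 (-0.05) turned lower.

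Sham 5 was the highest sham library of the cortex for 9 of the 10 genes, all but Egr3, and bulbectomy 1 the highest of its group for 8 of the 10. Some of the 10 genes varied widely between these sham libraries. The SD of log2 CPM was 1.62 for Egr2, 1.26 for Npas4, 0.96 for Fos and 0.86 for Arc, against a median of 0.30 over 16564 genes, which places them at the 99.4th, 98.6th, 96th and 94.3rd percentile. Egr1, at 0.38 (64.6th percentile), and Fosb, at 0.31 (53.2nd percentile), were near the median gene. Leaving out each library in turn, an alternative chosen after the values had been seen, lowered the SD of Arc to 0.37 (66.4th percentile) and that of Fos to 0.63 (86.8th percentile) without sham 5, and that of Npas4 to 0.76 (92.6th percentile) without sham 1. Without sham 5, Nr4a1 fell from 0.651 (87.5th percentile) to 0.0739 (2.79th), and Junb from 0.514 (79.9th) to 0.315 (58.2nd). Egr2 (98th percentile), Npas4 (96.5th) and Egr3 (85.6th) still spread widely without sham 5. In the sham hippocampus Nr4a1 had an SD of 0.15 (4.6th percentile). Npas4 (1.24) and Egr2 (1.05) spread widely there through 1 library each: without sham 1, which held 4 reads of Npas4, its SD was 0.28 (28.2nd percentile), and without sham 3, which held 2 reads of Egr2, its SD was 0.28 (23.9th percentile).

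In the cerebellum after bulbectomy, 8 of the 10 genes passed the filter on low counts and 0 were called (2 of 15295 genes were, 0.0131%). The 8 all had an adjusted p of 1, none had an unadjusted p under 0.05, and DESeq2 and limma voom called none (0.0785% and 0.438% of all genes). Fosb was the 1 gene whose groups did not overlap (10.9% of all genes in either direction): it had 1.94 and 2.09 CPM in the bulbectomy libraries and 1.15, 0.608, 0.812, 1.23 and 1.22 CPM in the sham libraries, 0.97 ± 0.443 higher on the log2 scale. These levels rest on 27 and 43 reads against 7 to 21. Junb had 10.8 and 15.96 CPM against 9.40, 22.3, 26.2, 31.8 and 31.8 CPM, with only sham 1 below the bulbectomy libraries (-0.87 ± 0.443). Fos had 12.5 and 5.40 CPM, within its sham range. Arc, at 18.4 ± 1.29 (n = 2) against 18.1 ± 3.45 CPM (n = 5), was the closest between groups. Egr2 and Egr3 did not pass the filter, with at most 3 reads of Egr2 in any library and at most 9 of Egr3 except for 32 in sham 2.

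**Figure D3:**
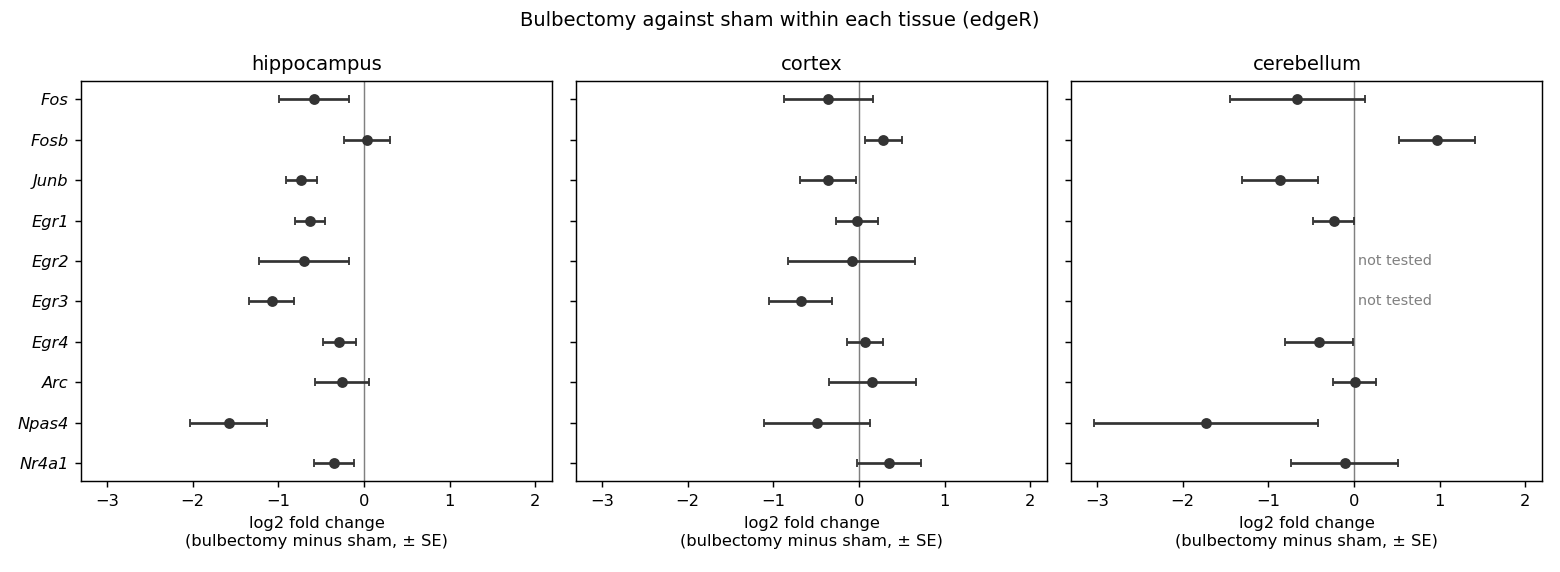
Log2 fold change of each gene, bulbectomy minus sham, with its standard error, in the 3 tissues; Egr2 and Egr3 were not tested in the cerebellum. In hippocampus 9 of 10 points lie left of 0, from -1.58 (Npas4) to -0.26 (Arc), and in cortex 6 of 10 do.

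Whether the response to bulbectomy differed between tissues was tested directly, as an interaction in a fit of all 24 libraries. No gene of the 16564 passed in any of the 3 contrasts of tissues, the 10 immediate early genes included (0% of genes in each). The unadjusted p was under 0.05 for 466 genes between hippocampus and cortex, Egr1 among them (-0.64 ± 0.298, adjusted p = 1), for 511 between hippocampus and cerebellum, Fosb among them (-0.98 ± 0.408, adjusted p = 1), and for 276 between cortex and cerebellum, none of the 10 among them. DESeq2 called 3, 2 and 0 genes and limma voom 1, 3 and 3, with none of the 10. Against the cortex, the fold change in hippocampus was the lower for 10 of 10 genes (median difference -0.44, all genes -0.06), and against the cerebellum for 4 of 10. Egr2 and Egr3, not among those 4, failed the low-count filter in the cerebellum alone, so their side in that contrast is not read. The lower values in hippocampus are therefore not shown to be particular to it.

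The wider pathway gave little in bulbectomy against sham. In the hippocampus 0 of 21 regulated transcription factors and 0 of 26 regulated effectors were called, with median log2 fold changes of 0.02 and 0.22, while the members' median was -0.61. The smallest p among them belonged to Jund (0.47, adjusted p = 0.212; 52.58% of its exon bases overlap a gene on the opposite strand), Myc (-0.68, adjusted p = 0.296), Fbxo33 (0.64, adjusted p = 0.102) and Nptx2 (0.50, adjusted p = 0.243). Of 31 upstream genes 1 was called, where 1.55% of all genes were called in either direction. It was Cacna1c, the pore of an L-type calcium channel, which fell from 23.6 ± 5.18 (SD, n = 5) to 11.9 ± 1.47 CPM (n = 4). The fall was 0.96 on the log2 scale (SE 0.199, adjusted p = 0.0338). In the cortex and the cerebellum 0 genes of the 3 lists were called. With edgeR at an unadjusted p under 0.05, the transcription factors, effectors and upstream genes numbered 0, 4 and 3 in the cortex and 2, 0 and 1 in the cerebellum, against 1, 3 and 13 in the hippocampus. Over all genes that share was 5.91% in the cortex, 2.97% in the cerebellum and 20% in the hippocampus, so the counts are not compared between tissues. The lowest p in the cortex was that of Nptx2 (0.61 ± 0.187, adjusted p = 0.687). In the cerebellum it was that of Per1, a clock gene that is also an immediate early gene (0.66 ± 0.179, adjusted p = 1).

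Between libraries of one tissue the 10 genes tended to vary together, after the mean of each operation group was removed. The median Pearson r over the 45 pairs was 0.77 in the cortex (8 libraries), 0.31 in the hippocampus (9) and 0.33 in the cerebellum (7), where the median r of a member with all genes was 0.02, 0.02 and 0.04. Without the pairs that hold Egr2 or Egr3, which are scarce in the cerebellum, the medians over 28 pairs were 0.82, 0.45 and 0.47, a choice made after the values had been seen. In the cortex 42 of 45 pairs were positive and 33 were over 0.5. The closest pairs there were Egr4 with Npas4 (r = 0.98), Arc with Nr4a1 (0.96) and Egr1 with Arc (0.96). These r share libraries, depth and scaling and are given as a description.

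Egr3 stood outside this pattern in the cortex, though its r with Fosb was 0.76 there. In the cortex its median r with the other 9 was 0.19, where the other genes had medians from 0.57 (Fosb) to 0.87 (Fos), and its 3 negative pairs, with Npas4, Egr4 and Egr2, were the 3 negative pairs of the tissue. In the hippocampus the median r was as low for Egr2 (0.0688) as for Egr3 (0.0715), and was 0.161 for Junb. Egr3 had an r of -0.56 with Junb, the lowest of that tissue, although both were lower after bulbectomy. With Egr1 and Nr4a1 its r was 0.53 there. In the cerebellum Egr2 and Egr3 were too scarce to read.

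**Figure D4:**
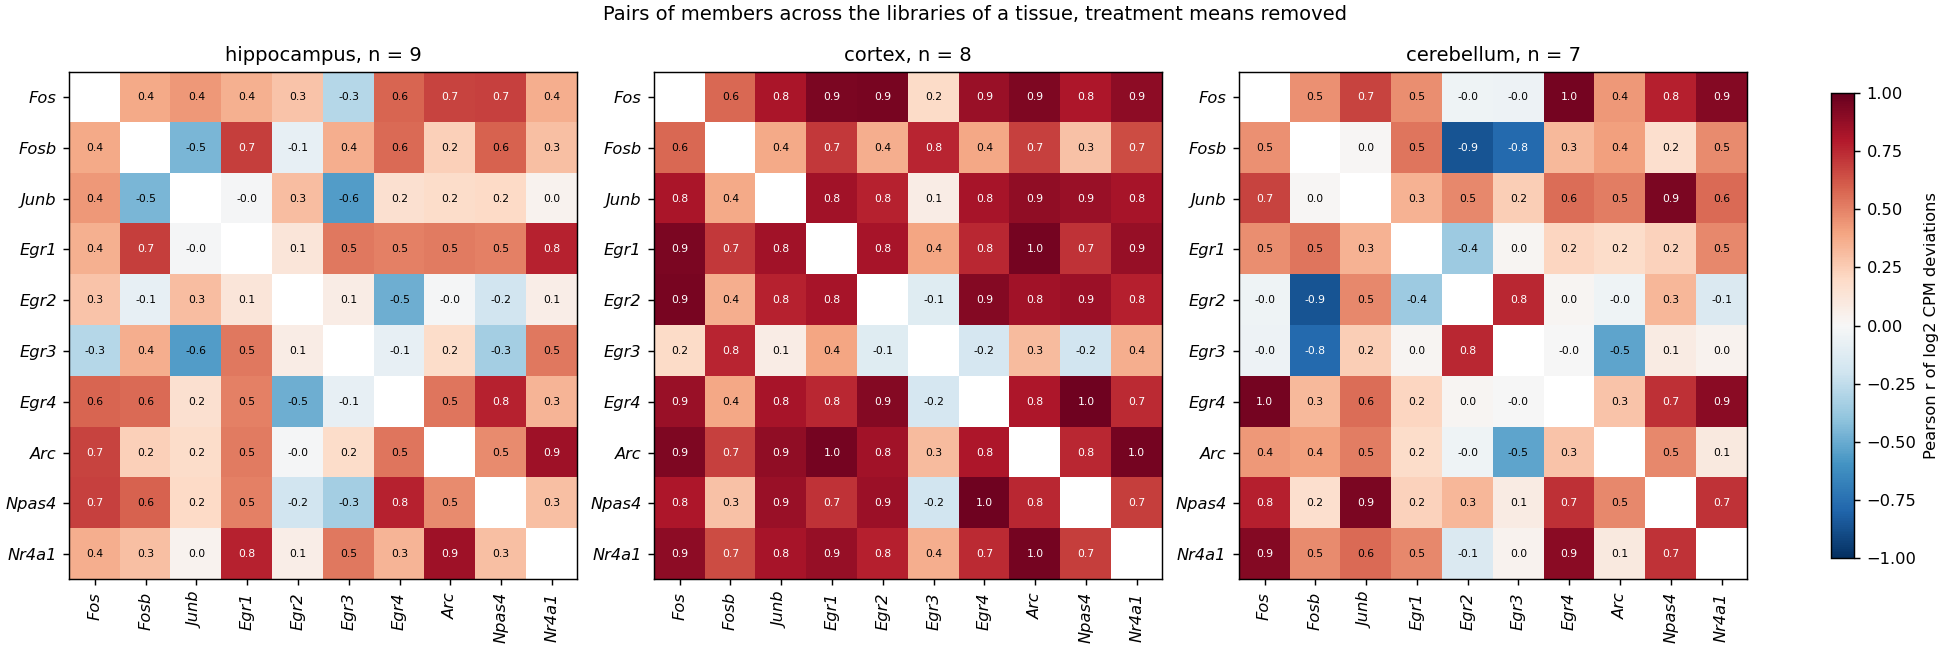
Pearson r of each pair of genes across the libraries of a tissue, computed on log2 CPM with the mean of each operation group removed; red is positive and blue negative. In the cortex panel 42 of 45 pairs are positive (median 0.77) and the 3 negative ones are in the row of Egr3; the other panels hold more negative pairs.

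Fos was tested against each of the other 9 in each tissue, 27 relations, by exact two-sided permutation within operation groups. In the cortex (n = 8) 4 passed after adjustment: Egr2 (r = 0.95, rho = 0.91, exact p = 0.00139, adjusted p = 0.0375), Egr1 (r = 0.94, rho = 0.95, exact p = 0.00556, adjusted p = 0.0375), Arc (r = 0.94, rho = 0.83, exact p = 0.00556, adjusted p = 0.0375) and Nr4a1 (r = 0.90, rho = 0.88, exact p = 0.00278, adjusted p = 0.0375). By rank none of the 4 passed (permutation p for rho 0.00694 to 0.0292, adjusted p 0.131 to 0.197). Without the 2 libraries farthest in Fos (bulbectomy 1 and sham 5), r was still 0.97, 0.86, 0.73 and 0.76 over 6 libraries. Those 6 allow only 48 orders and no p under 0.0208, so the exact adjusted p of 0.422 to 0.5 there cannot tell whether the calls rest on the 2 libraries. The smallest p that 8 libraries allow is 0.00139.

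Egr4 (r = 0.87, rho = 0.69), Junb (r = 0.82, rho = 0.67) and Npas4 (r = 0.81, rho = 0.69) followed in the cortex without passing (exact adjusted p 0.0797, 0.0797 and 0.124). Fosb (r = 0.57, rho = 0.62) and Egr3 (r = 0.19, rho = 0.31) had lower values (exact adjusted p 0.36 and 0.688). In the hippocampus (n = 9) none passed, with Npas4 (r = 0.68, rho = 0.50, exact p = 0.0215, adjusted p = 0.0797) and Arc (r = 0.68, rho = 0.60, exact p = 0.0681, adjusted p = 0.153) the highest. In the cerebellum (n = 7) none passed either, and Egr4 (r = 0.95, rho = 0.86, exact p = 0.0125, adjusted p = 0.0675) and Nr4a1 (r = 0.92, rho = 0.75, exact p = 0.0417, adjusted p = 0.124) were highest. The difference of these r between tissues was not tested.

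Libraries of different tissues that carry the same number and operation in their labels were also alike in Fos, a comparison chosen after the values had been seen. Sham 5 had the most Fos of the sham libraries in all 3 tissues (14.8, 41.3 and 27.8 CPM in hippocampus, cortex and cerebellum) and sham 1 the least (4.13, 7.10 and 4.13 CPM). In each of the 5 sham numbers Fos was lower in hippocampus than in cortex. Among the bulbectomy libraries number 1 was highest in all 3 (10, 23.0 and 12.5 CPM). With group means removed, r of Fos was 0.95 between cortex and cerebellum (rho = 0.96, exact permutation p = 0.00833, 7 numbers), 0.84 between hippocampus and cerebellum (rho = 0.79, exact permutation p = 0.0458, 7 numbers) and 0.81 between hippocampus and cortex (rho = 0.76, exact permutation p = 0.0264, 8 numbers). Without the 2 farthest numbers r was 0.93, 0.78 and 0.78. With all numbers, 0.404%, 12.1% and 2.43% of all genes had at least the r of Fos, in the same order of pairs. Over the 30 relations computed, 10 genes in 3 pairs of tissues, 0 passed adjustment (permutation adjusted p for Fos 0.0972, 0.196 and 0.158).

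Between hippocampus and cortex, r was 0.89 for Npas4 (rho = 0.74, 0.53 without the 2 farthest numbers) and 0.82 for Arc (rho = 0.86, 0.86 without them), both with an exact permutation adjusted p of 0.0972, and -0.27 for Fosb (rho = -0.26, exact permutation adjusted p = 0.648). The median r of all genes between same-numbered libraries was 0.14, 0.48 and 0.26 for hippocampus with cortex, hippocampus with cerebellum and cortex with cerebellum. The medians of the 10 genes were 0.43, 0.41 and 0.51. No source says that same-numbered libraries came from 1 animal.

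**Figure D5:**
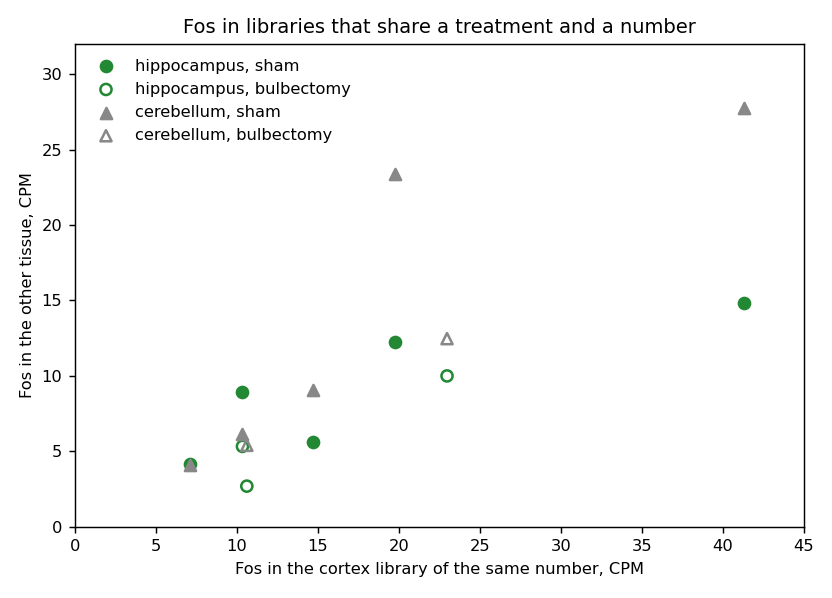
Fos in hippocampus or cerebellum (vertical axis, CPM) against Fos in the cortex library of the same number and operation (horizontal axis, CPM); filled symbols are sham and open symbols bulbectomy libraries. The sham library with 41.3 CPM in cortex is also the highest of its group in both other tissues, at 14.8 and 27.8 CPM.

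Genes whose deviations from their group means were among the 10 most like the mean of the 10 members, over all 24 libraries and 10821 genes with a mean of at least 5 CPM, were Ppm1f (r = 0.81), Adipor2 (0.77), Dusp1 (0.77), Acer2 (0.75), Btg2 (0.71), Fuca2 (0.70), Ccl8 (0.70), Nadk (0.70) and Rsrp1 (0.69). Ppm1f is a phosphatase and Adipor2 a receptor of adiponectin. Dusp1, a phosphatase of MAP kinases, and Btg2 belong to the lists of the pathway. Within hippocampus, cortex and cerebellum, r was 0.67, 0.93 and 0.80 for Dusp1, 0.58, 0.90 and 0.32 for Btg2, and 0.62, 0.90 and 0.85 for Acer2. Over the lists, the median r was 0.23 for the 21 effectors ranked, 0.17 for the 17 transcription factors and -0.26 for the 30 upstream genes, beside 0.02 for all genes. These values describe likeness between libraries and carry no test.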

How the data were processed

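Gene counts of 24 RNA-seq libraries, 1 table each, were deposited by the authors; per the submitters' processing notes reads were trimmed with Trimmomatic, aligned to mm10 with STAR and counted with featureCounts, whose strand setting is not given in the sources used here. Summary rows (12 a table) were left out, and the gene rows summed to the assigned reads in 24 of 24 tables. Reads in no gene were 2.618 to 9.224% and ambiguous reads 3.924 to 5.078% of the assigned, no-gene and ambiguous reads of each library together. The 10 genes and the pathway and marker lists (190 of 193 symbols matched) were chosen with earlier results of these data known.

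Genes were filtered on low counts (filterByExpr), scaled by TMM and tested with edgeR 4.0.16 in R 4.3.3 (robust quasi-likelihood test, Benjamini-Hochberg adjusted p under 0.05 over all genes tested): bulbectomy against sham within each tissue on that tissue's libraries, the sham tissues in 1 fit of 15 libraries, and the interactions in 1 fit of 24. The pipeline was tested on simulated counts. Named genes were the 10, and in each pathway list the called genes with the smallest p, or otherwise the genes with the smallest p. Of the 10 genes most like the members, 1 is not reported here.

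Correlations used log2 CPM (prior count 2) less the group mean, with exact two-sided permutation within groups (SciPy 1.17.1). Alternatives were DESeq2 1.42.0, limma 3.58.1 voom with library weights, RLE scaling, no filter, length and GC trend removal (mgcv 1.9.3), other sets of libraries in the fit, leaving out each library, blocking on the replicate number, and prior count 0.5. Gene models were GENCODE M21 and promoters RefSeq GRCm38.p6.

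Same-numbered sham libraries of hippocampus and cerebellum deviated together over all genes (r 0.25 to 0.439 in 5 of 5 pairs), so the numbers were taken to pair those. The 20 other pairs of these libraries ranged from -0.473 to 0.373, so the ranges overlap. Bulbectomy and sham libraries of a tissue, and the other sham tissues, were not taken as paired. With the block, 9 genes were called between sham hippocampus and sham cerebellum, as without it.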

Additional observations from a re-analysis of the deposited data

Results flagged for a closer look

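In groups of 4 or 5 libraries, 40 sets of values of the 10 genes were checked for a library far from the others of its group, and 4 (10%) had one; chance gives about 1 in 20. In the sham cortex, sham 5 had 337.6 CPM of Arc, where the next library had 138.3 CPM, and 88.3 CPM of Nr4a1, where the next had 34.0 CPM. In the sham cerebellum, sham 5 had 64.5 CPM of Egr1 (next 44.9 CPM), and sham 2 had 2.78 CPM of Egr3 (next 0.521 CPM), which is 32 reads against at most 9.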

How the results depend on the processing

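Of 1421 values recomputed for 95 results, 1328 kept their direction and side of the threshold, 5 lost the threshold, 32 gained it and 56 changed sign. The number of the 10 genes called in hippocampus after bulbectomy, 0, became 4 with DESeq2, 2 with limma voom, and 1 each with trends removed, with no filter, with the replicate block and without sham 1 and 2. It ranged from 0 to 2 with each library left out, and from 0 to 1 in the cortex. Between sham hippocampus and sham cortex 1 gene became 2 with DESeq2, with only those tissues and with the replicate block (which added Fos, -0.94, adjusted p = 0.0385), and 3 with limma voom. The relations of Fos that passed went from 4 to 0 without the 2 libraries farthest in Fos, a setting with too few orders in the cortex (48) to bear on the calls.

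Values that changed sign were small or imprecise. For bulbectomy against sham with the replicate block, they were Fosb in hippocampus (-0.0258), Fos (0.23), Egr1 (0.14), Egr2 (1.09) and Npas4 (0.31) in cortex, and Fos (0.63), Npas4 (0.54) and Nr4a1 (0.59) in cerebellum. With limma voom they were Fosb in hippocampus (-0.0434), Egr2 (0.35), Egr4 (-0.00157) and Arc (-0.0717) in cortex, Arc in cerebellum (-0.00478), and Fos between sham cortex and cerebellum (-0.12). With trends removed they were Egr1 (0.0609) and Egr2 (0.0448) in cortex and Arc in cerebellum (-0.14), the last also with DESeq2 (-0.0124) and RLE scaling (-0.0116).

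With each library left out, sign changes gave ranges of -0.27 to 0.20 for Fosb in hippocampus, and in cortex of -0.89 to 0.14 (Fos), -0.31 to 0.13 (Egr1), -0.39 to 0.81 (Egr2), -0.0304 to 0.187 (Egr4), -0.34 to 0.70 (Arc), -0.83 to 0.0717 (Npas4) and -0.0496 to 0.754 (Nr4a1). In cerebellum they were -0.0896 to 0.0636 (Arc) and -0.54 to 0.23 (Nr4a1). Between sham hippocampus and cortex they were -0.26 to 0.10 (Junb) and -0.49 to 0.0327 (Nr4a1), and between sham cortex and cerebellum -0.039 to 0.872 (Fos). The correlation with Fos changed sign at prior count 0.5 for Egr2 (0.11) and Egr3 (0.00356) in cerebellum. Without the 2 farthest libraries it did so for Fosb (-0.32) and Egr4 (-0.40) in hippocampus, Egr3 in cortex (-0.44), and Fosb (-0.48), Egr1 (-0.70), Egr2 (0.53) and Egr3 (0.35) in cerebellum. With the replicate block, bulbectomy against sham is estimated only from numbers that both groups of a tissue hold. Cortex sham 3 and sham 5, for example, carry no weight in it. For the other settings that left no library out, the cause was not tested.

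Over all genes, the calls after bulbectomy were 217 in hippocampus (954 with DESeq2, 76 with the block, 30 to 477 with a library left out), 3 in cortex (252 with limma voom, 39 with DESeq2, 1 to 573) and 2 in cerebellum (67, 12, 0 to 36). Between sham hippocampus and cortex they were 500 (1536 with limma voom, 895 with DESeq2, 865 with only those tissues, 765 with the block, 284 to 1101), and between sham cortex and cerebellum 5251 (9030 with limma voom). Counting limits Egr2 and Egr3 in the cerebellum, and 2 bulbectomy libraries there leave wide errors. Bulbectomy and sham libraries share only a number (r -0.287 to 0.0341 in hippocampus, -0.179 to 0.146 in cortex), so the block shows no pairing there. In the cerebellum the 2 same-numbered pairs were positive (0.234 and 0.323, other pairs at a median of -0.0698). With 2 bulbectomy libraries, the deviations from their mean are mirror images. The 2 pairs are therefore not separate observations and cannot decide.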

Other observations

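Averaged over the 10 genes, the deviation from the group mean on the log2 CPM scale was largest upward in cortex sham 5 (0.996) and largest downward in cerebellum sham 1 (-0.941), followed by cortex sham 1 (-0.671). Cerebellum sham 5 (0.545) and cortex bulbectomy 1 (0.494) were also high. Hippocampus sham 1 (-0.413) had the lowest level of its group for 8 of the 10 genes, and it is the library with the fewest reads.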
